A study of Mus musculus with 6 samples.

Results

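Perineurial barrier cells were picked out of single-cell RNA-seq libraries of the mouse sciatic nerve by the transcripts of 4 genes, and are described here by library, against the other cells of the same libraries and by surgery. A cell was a barcode with at least 1000 UMIs (unique molecular identifiers, each standing for 1 captured RNA molecule) and a mitochondrial share of these under 10%. A cell counted as a perineurial barrier cell when its UMIs of claudin 1 (Cldn1), the glucose transporter Glut1 (Slc2a1), secreted frizzled-related protein 5 (Sfrp5) and Lypd2 summed to at least 3, with at least 1 from Cldn1 or Sfrp5, and when it had no UMI of Sox10 (Schwann cells), Cdh5 (endothelium) or Myh11 (smooth muscle). The cells were thus chosen by measured UMI counts of these genes, and the rule took 546 of 11524 cells (4.74%). Since these 7 genes chose the cells, their levels are given as a description and were not tested. On GRCm38 with GENCODE vM21 genes, Cldn1 lies at chr16:26356642-26371841, Slc2a1 at chr4:119108711-119137983, Sfrp5 at chr19:42197971-42202252 and Lypd2 at chr15:74732247-74734329.

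The mice were C57BL/6J wild types that had either partial sciatic nerve ligation (PSNL), an injury in which a suture ties off part of the nerve, or sham surgery. Each library pooled the ipsilateral nerves of 4 mice, male and female in equal parts, trimmed to 0.5 cm around the lesion site, and was made from nucleated (DRAQ5+) live (DAPI-) singlets sorted as Myelin-, CD45- and Ter119-. Batch 1 held a sham and a PSNL library at month 2. Batch 2 held a sham and a PSNL library at month 2 and a PSNL library at day 5, and its sham library at day 5 was not analysed here. A group within a batch was therefore 1 pooled library, in which single animals cannot be told apart. For expression, p-values measure how the difference between cell classes within a library varied over pooled libraries of different surgery and time. Those of the shares measure the spread between the pooled libraries.

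The perineurium is the sheath of flattened cells around each nerve fascicle. Tight junctions between these cells, together with the endothelium of the endoneurial vessels, form the blood-nerve barrier, and each perineurial layer rests on a basement membrane. During development the sheath depends on desert hedgehog (Dhh) secreted by Schwann cells, which acts through the receptor Patched1 (Ptch1).

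The libraries held 544 cells (sham month 2, batch 1), 2327 (PSNL month 2, batch 1), 3394 (sham month 2, batch 2), 3777 (PSNL month 2, batch 2) and 1482 (PSNL day 5, batch 2), with median depths between 2486 and 10946 UMIs per cell. Perineurial barrier cells were shallower, with a median of 2452.5 UMIs over all libraries. Of all cells, 20 had a barcode that also occurred in another library, and none of these was a perineurial barrier cell.

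The starts of 3 of the 4 defining genes are shown first, because these genes chose the cells. Each line holds the 200 bases before the outermost annotated start of the gene (RefSeq or GENCODE vM21), from RefSeq on GRCm38.p6, read 5′ to 3′ on the gene's own strand. Capitals mark CACCC, or GGGTG where the match lies on the other strand, a motif that Krüppel-like factors can bind. The lines cover chr16:26371842-26372041 on the minus strand for Cldn1, chr4:119108511-119108710 on the plus strand for Slc2a1 and chr19:42202253-42202452 on the minus strand for Sfrp5.
Cldn1: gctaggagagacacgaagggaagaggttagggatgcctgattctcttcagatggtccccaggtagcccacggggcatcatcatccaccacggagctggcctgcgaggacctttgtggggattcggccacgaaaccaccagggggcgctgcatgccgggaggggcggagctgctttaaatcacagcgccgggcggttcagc
Slc2a1: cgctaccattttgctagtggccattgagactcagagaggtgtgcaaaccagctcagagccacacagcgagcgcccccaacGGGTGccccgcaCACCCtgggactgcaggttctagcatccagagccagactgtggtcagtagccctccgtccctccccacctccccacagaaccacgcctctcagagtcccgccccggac
Sfrp5: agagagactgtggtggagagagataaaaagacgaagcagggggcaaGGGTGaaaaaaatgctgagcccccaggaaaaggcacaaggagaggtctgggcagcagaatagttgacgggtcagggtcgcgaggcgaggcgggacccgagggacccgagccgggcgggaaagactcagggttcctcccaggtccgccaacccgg
CACCC was counted on both strands 0 times before Cldn1, 2 times before Slc2a1 and 1 time before Sfrp5, and it occurred in 45.5% of 32851 promoter windows of the same length. The GC box GGGCGG was counted on both strands 2, 1 and 1 times in the same order and occurred in 31.0% of windows. TATAAA was in none of the 3 and in 9.96% of windows. No match of 1 motif overlapped a match of another, and the letters alone do not show binding.

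The cells differed in which of the 4 defining genes they held. Of the 546 cells, 454 had a UMI of Sfrp5, a secreted Wnt antagonist, 422 of Cldn1, the tight junction claudin, 332 of Slc2a1 and 320 of Lypd2. Sox10+ cells outside the gate, which by construction miss the 4-gene threshold, had a UMI of Sfrp5 in 1.52% (PSNL month 2, batch 1), 7.85% (sham month 2, batch 2), 10.3% (PSNL month 2, batch 2) and 2.65% (PSNL day 5) of cells, and of Cldn1 in 0%, 1.03%, 0.785% and 0.964%. At least 2 of the genes were found in 465 cells and all 4 in 166, and the median cell had 8 UMIs of them. Levels are given from here on as CPM, the UMIs of a gene scaled to the summed UMIs of a library's cells, in the order PSNL month 2 batch 1, sham month 2 batch 2, PSNL month 2 batch 2 and PSNL day 5, which had 71, 287, 164 and 22 perineurial barrier cells. The sham library of batch 1 had 2 such cells and entered no comparison of expression.

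Cldn1 stood at 1163, 877, 789 and 246 CPM in these 4 libraries. Slc2a1 stood at 484, 679.9, 372 and 95.3 CPM. Sfrp5 stood at 2002, 2053, 1157 and 683 CPM. All 3, and Lypd2 with 945, 706, 426 and 103 CPM, were lowest in the day 5 library. In Pdgfra fibroblasts of the same libraries, which are cells outside the gate with a Pdgfra UMI and no UMI of Sox10, Cdh5, Myh11 or Ptprc, Cldn1 was at 4.65 to 12.1 CPM. Around the threshold, 117 cells with 2 UMIs of the 4 genes held 51.4 CPM of keratin 19 (Krt19), 84 with 3 UMIs held 129, 58 with 4 held 182 and 404 with 5 or more held 502. A UMI of Krt19 or integrin β4 (Itgb4) was found in 31.6%, 38.1%, 51.7% and 85.4% of these cells, rising across the threshold without a step at it.

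Genes that the rule did not use are described next. Krt19 was listed as a marker with earlier results of these data known, so it is no independent check of the label. Krt19, an intermediate filament keratin of epithelia, was found in 49.3% of the PSNL cells of batch 1, in 54.7% and 44.5% of the sham and PSNL cells of batch 2 and in 9.09% of the day 5 cells. It was found in none of 198, 484, 892 and 415 Sox10+ cells outside the gate, and it stood at 31.0%, 32.1%, 28.7% and 4.55% when each cell was thinned to 1000 UMIs. Krt19 was thus frequent at month 2, and less so in the 22 cells of day 5. Wnt6, a secreted Wnt ligand, set the cells less apart: it was found in 40.8%, 71.8%, 56.1% and 13.6% of perineurial barrier cells and in 18.7%, 36.0%, 35.1% and 10.8% of Sox10+ cells outside the gate, and after thinning in 22.5%, 51.6%, 32.9% and 4.55% against 9.60%, 18.4%, 16.7% and 1.93%. In Leiden clustering of all cells, which gave 13 clusters, 443 of the 546 cells (81.1%) lay in 1 cluster of 854 cells, 770 of which passed the 4-gene threshold. At day 5 only 9 of 22 (40.9%) lay there.

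A group of cells inside the gate went against the label. Myelin basic protein (Mbp), a protein of the myelin that Schwann cells make, had at least 3 UMIs in 39 of the 546 cells, namely 4, 5, 25 and 5 in the 4 libraries, or 5.63%, 1.74%, 15.2% and 22.7% of the perineurial barrier cells. The cut at 3 UMIs was chosen after seeing the data. Summed over these cells, Mbp was at 7496, 8451, 7261 and 2018 CPM, against 6.52, 8.06, 0 and 0 CPM in the other 507. Of the 39, 32 had passed on Sfrp5 alone, the defining gene most often found in Sox10+ cells outside the gate at month 2 in batch 2, which was at 937, 1665, 732 and 1174 CPM in them, and 34 lay in 1 cluster apart from the one above. Krt19 was at 0 CPM in the Mbp-rich cells of 3 libraries and at 8.82 CPM in those of the PSNL library of batch 2 at month 2. Like all cells that the rule took, these Mbp-rich cells had no Sox10 UMI by construction. The comparisons were repeated without them, an alternative added after seeing the data.

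**Figure D1:**
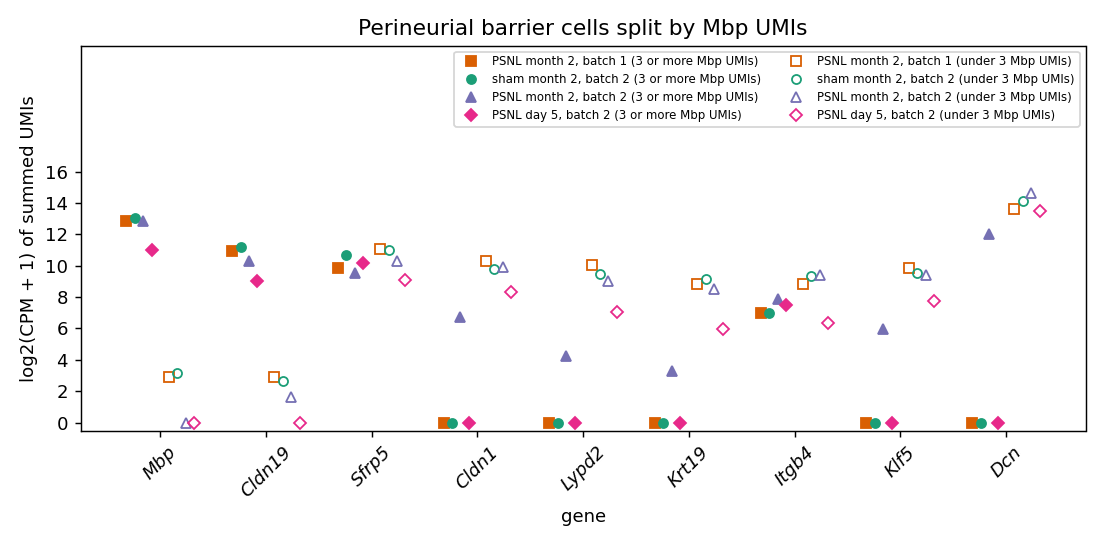
Summed expression of 9 genes, as log2(CPM + 1), in perineurial barrier cells with at least 3 Mbp UMIs (filled) and with fewer (open), 1 symbol per library. Mbp and Cldn19 lie high only in the filled symbols, Sfrp5 lies high in both, and Cldn1, Lypd2, Klf5 and Dcn lie higher in the open symbols.

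Against Pdgfra fibroblasts, perineurial barrier cells held more Krt19, Itgb4, Itga6 and Perp and less of most fibrillar matrix genes. Across the 4 libraries, edgeR's quasi-likelihood test with the library as a block called 802 of 11617 genes higher (6.9%) and 909 lower (7.82%) at a Benjamini-Hochberg adjusted p below 0.05. All log2 fold changes below, with their standard errors (SE) and adjusted p, come from this fit unless said otherwise. The number of calls depended on the libraries: it was 522 higher and 542 lower without the PSNL library of batch 1, 472 and 469 without the sham library, 408 and 422 with the PSNL library of batch 2 at month 2 left out, and 1206 and 1523 without the day 5 library.

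Of 11 perineurial markers outside the gate, 9 were tested and 8 were higher, with a median log2 fold change of 4.86, against -0.04 over all genes tested. This list, too, was drawn up with earlier results of these data known. Krt19 stood at 407, 554, 292 and 47.7 CPM in perineurial barrier cells. In fibroblasts it stood at 4.29, 1.65, 1.99 and 2.17 CPM. The log2 fold change was 6.83 (SE 0.46, adjusted p 9.81e-07), with no overlap of the groups and the day 5 library the lowest. Itgb4, the β subunit of the integrin that anchors epithelial cells to laminin, stood at 431, 631, 598 and 103 CPM against 1.22 to 3.5 CPM in fibroblasts, a log2 fold change of 7.33 (SE 0.37, adjusted p 6.12e-08). Perp, a membrane protein of desmosomes, stood at 118, 192, 123 and 55.6 CPM against 0 to 1.03 CPM, a log2 fold change of 7.37 (SE 0.37, adjusted p 6.12e-08). Both followed the same order of libraries, with day 5 at the bottom. Moxd1, a monooxygenase, had the highest fitted log2 fold change of the genes tested and stood at 94.5, 126, 99.0 and 23.8 CPM against at most 0.62 CPM in fibroblasts. Lgals7, Mpzl2, Msln and Tenm2 were also higher, by 4.86, 3.26, 3.04 and 2.83. Ntn4 gave 0.37 (SE 0.32, adjusted p 0.509), and Dleu7 and the tight junction protein occludin (Ocln) were too sparse in fibroblasts to be tested. Dleu7 stood at 106, 149, 115 and 0 CPM and Ocln at 29.5, 51.3, 27.8 and 0 CPM, both at 0 at day 5.

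**Figure D2:**
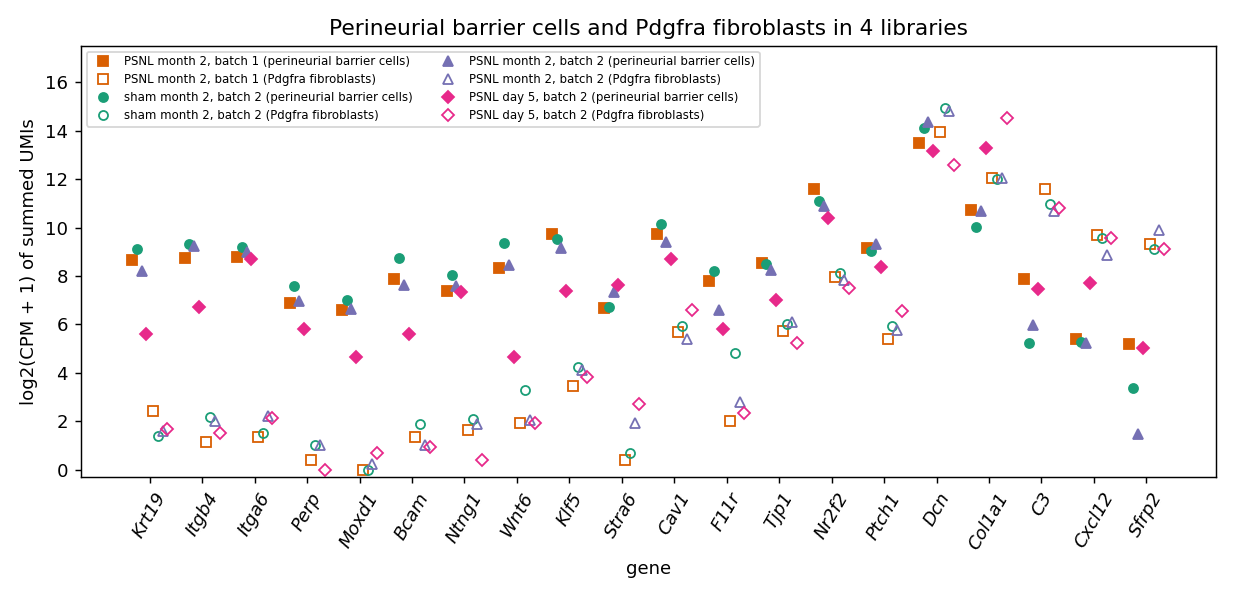
Summed expression of 20 genes, as log2(CPM + 1), in perineurial barrier cells (filled) and Pdgfra fibroblasts (open) of 4 libraries. Krt19, Itgb4, Itga6 and Klf5 are higher in the filled symbols of every library, Dcn overlaps, and C3, Cxcl12 and Sfrp2 are higher in the open symbols.

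Some junction genes were higher. Of 11 tight junction genes tested, 6 were higher and 2 lower, and 4 were higher and none lower without the Mbp-rich cells. Over all genes, the fit without the Mbp-rich cells called 734 of 11386 higher and 911 lower. The junctional adhesion molecule F11r stood at 218, 293, 95.5 and 55.6 CPM, against 3.06, 26.8, 5.98 and 4.03 CPM in fibroblasts, a log2 fold change of 4.07 (SE 0.37, adjusted p 6.61e-06). The scaffold ZO-1 (Tjp1) stood at 366, 362, 302 and 127 CPM against 52.1, 62.9, 67.6 and 36.6, a log2 fold change of 2.23 (SE 0.24, adjusted p 2.37e-05). For both genes the lowest perineurial library, day 5, lay above the highest fibroblast value. Magi1 and paracingulin (Cgnl1) were higher by 2.57 and 2.10. Claudin 19 (Cldn19), a claudin of myelinating Schwann cells, was higher by 4.39 but stood at -0.89 without the Mbp-rich cells, and the call of Cldn12 (1.37, adjusted p 0.0497) was also lost then. Of 15 adherens, desmosomal and gap junction genes, 6 were higher and none lower. These were Perp, plakoglobin (Jup, 2.23), cadherin 11 (Cdh11, 1.93), Pkp4, Nectin2 and α-catenin (Ctnna1, 1.00).

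Transport genes were mixed. Of 22 tested solute, drug and water transporters, 9 were higher and 4 lower, with a median of -0.01. The GABA and taurine transporter Slc6a13 stood at 201, 279, 165 and 31.8 CPM against 1.86 to 9.49 CPM in fibroblasts, a log2 fold change of 5.13 (SE 0.34, adjusted p 9.81e-07). The drug efflux pump P-glycoprotein (Abcb1a) stood at 59.1, 92.1, 59.1 and 47.7 CPM against 2.79 to 8.45, a log2 fold change of 3.42 (SE 0.30, adjusted p 5.12e-06). The chloride cotransporter Slc12a2 was higher by 2.40, the efflux pump Abcg2 by 1.67 and the organic anion transporters Slco2a1 and Slco2b1 by 1.88 and 1.40. Beside Slc2a1, which chose the cells, 18 genes of glucose uptake and glycolysis were tested and 2 were higher. The lactate and pyruvate transporter Slc16a1 stood at 201, 149, 139 and 230.4 CPM against 13.8, 12.6, 16.4 and 114 CPM, a log2 fold change of 2.76 (SE 0.39, adjusted p 2.77e-04), and lactate dehydrogenase B (Ldhb) was higher by 2.63. The fibroblast value of Slc16a1 at day 5 lay far above those at month 2 but below every perineurial value. Of 6 caveolar genes, 3 were higher: caveolin 1 (Cav1) at 850.3, 1115, 677 and 413 CPM against 41.0 to 94.5 CPM, Cav2 (3.95) and Cavin2 (3.44), with 3.54 (SE 0.35, adjusted p 1.23e-05) for Cav1.

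Genes of the basement membrane went both ways. Of 26 genes tested, 6 were higher and 4 lower. Integrin α6 (Itga6), the partner of Itgb4, stood at 443, 584, 505 and 413 CPM against 1.53 to 3.65 CPM in fibroblasts, a log2 fold change of 7.41 (SE 0.33, adjusted p 4.76e-08). Without the Mbp-rich cells it stood at 457, 591, 528 and 213 CPM, with the day 5 library the lowest, and 5 Mbp-rich cells at day 5 held 1137 CPM. The laminin receptor Itga7 and the collagen receptor Itga1 were higher by 4.52 and 1.99, and the collagen IV chains Col4a3 and Col4a4 by 1.84 and 1.70. Laminin α2 (Lama2, -1.17), nidogen 1 (Nid1, -1.05), Col15a1 (-1.52) and Col4a5 were lower. Another laminin receptor, Bcam, was among the leading genes, at 230.3, 427, 198 and 47.7 CPM against 0.929 to 2.68 CPM and a log2 fold change of 7.06 (SE 0.33, adjusted p 5.64e-08).

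Of 26 genes of the fibrillar matrix, none was higher and 21 were lower, with a median log2 fold change of -1.61. Collagen I (Col1a1) stood at 1695, 1026, 1639.7 and 9995 CPM against 4271, 4091, 4244 and 23611 CPM in fibroblasts, a log2 fold change of -1.62 (SE 0.19, adjusted p 6.38e-05). Col3a1 gave -2.12 (SE 0.21, adjusted p 1.55e-05). Col1a1 was highest at day 5 in both classes, so the classes overlapped across libraries and differed within each. Decorin (Dcn), a small matrix proteoglycan, did not pass the test: it stood at 11503, 17612, 20863 and 9097 CPM against 15749, 31517, 29104 and 6046, a log2 fold change of -0.43 (SE 0.22, adjusted p 0.226), and passed only without the day 5 library or with no filter on low counts. All 7 epineurial fibroblast markers were lower, among them Pi16 (-3.25), and of 6 endoneurial fibroblast markers 1 was lower (Osr2) and none higher. Without the Mbp-rich cells the endoneurial counts were 2 lower and 1 higher. Angptl7, an endoneurial marker, stood at 11.8, 21.0, 22.6 and 302 CPM against 76.2, 455, 179 and 68.8 CPM in fibroblasts, higher in perineurial barrier cells at day 5 and lower at month 2. Summed over the 7 endoneurial markers, the level was 372, 355, 716 and 914 CPM in perineurial barrier cells and 991, 1565, 1227 and 324 CPM in fibroblasts, so the order of the classes turned at day 5.

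Cytokine and complement genes were lower as a list, with 3 higher and 17 lower of 26 tested and a median of -2.06. Complement C3 stood at 236, 36.8, 62.5 and 175 CPM against 3119, 2007, 1655 and 1768 CPM in fibroblasts, a log2 fold change of -4.53 (SE 0.35, adjusted p 2.29e-06). The chemokine Cxcl12 stood at 41.3, 38.1, 36.5 and 207 CPM against 833, 749, 464 and 752, a log2 fold change of -3.63 (SE 0.36, adjusted p 1.26e-05). Groups did not overlap for either gene. Of mediators linked to pain, interleukin 6 (Il6) had 3 UMIs in all 4 perineurial sums, all of them in the PSNL month 2 library of batch 2, and stood at 38.9, 10.9, 11.8 and 64.7 CPM in fibroblasts (lower, adjusted p 0.00452). Ccl2, a monocyte chemokine, stood at 0, 6.58, 22.6 and 71.5 CPM against 123, 63.9, 60.1 and 232, with -2.48 (SE 0.41, adjusted p 7.69e-04). Leukemia inhibitory factor (Lif) also had 3 UMIs and did not pass the test (adjusted p 0.134). The 3 higher genes of the list were the complement inhibitor Cd59a (3.47), Il34 (1.73) and Cd200 (1.02). Of 17 interferon and antigen presentation genes, none was higher and 7 were lower, among them H2-K1 (-1.79).

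Among hedgehog genes, the receptor Ptch1, itself a target of the pathway, stood at 561, 521, 636 and 334 CPM in perineurial barrier cells. In fibroblasts it stood at 41.6 to 93.2 CPM, highest at day 5. The log2 fold change was 2.98 (SE 0.31, adjusted p 1.98e-05) and the groups did not overlap. The target gene Gli1 was higher by 1.92, and the coreceptors Gas1 and Cdon were lower (-2.54 and -2.51). In all, 2 of 10 genes were higher and 2 lower. The ligand Dhh had 36 UMIs in perineurial sums, and 0 CPM in the cells with fewer than 3 Mbp UMIs of every library.

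Among Wnt genes, 3 of 15 were higher and 7 lower. Wnt6 stood at 325, 658, 353 and 23.8 CPM against 2.76 to 8.66 CPM in fibroblasts, a log2 fold change of 6.08 (SE 0.44, adjusted p 1.49e-06), with the day 5 library far below the other 3. The Wnt antagonists Sfrp2 (-5.81) and Sfrp4 (-3.35) were lower in cells that had been chosen in part for Sfrp5. Sfrp4 stood at 94.5, 89.4, 90.3 and 739 CPM, highest at day 5. Wnt10a, another ligand, was testable only against all remaining cells, where its log2 fold change was 3.48 (SE 0.46, adjusted p 2.47e-04), and stood at 82.7, 119.7, 33.0 and 0 CPM. Of 27 TGF-β and BMP genes, 4 were higher, namely Bmpr1b, Inhba (2.00), Bmp6 and Id1 (1.74), and 9 were lower.

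Transcription factors gave 7 higher and 9 lower of 31. Klf5, a Krüppel-like factor of epithelia, stood at 844, 729, 566 and 167 CPM against 10.1, 17.7, 16.3 and 13.3 CPM in fibroblasts, a log2 fold change of 5.07 (SE 0.38, adjusted p 1.91e-06). COUP-TFII (Nr2f2), a nuclear receptor of venous endothelium and mesenchyme, stood at 3124, 2165, 1893 and 1359 CPM against 245, 281, 229.9 and 178, a log2 fold change of 3.02 (SE 0.22, adjusted p 1.49e-06). Foxd2, Foxd1, Bnc2, Meox2 and Foxc1 were higher by 2.77, 1.56, 1.98, 1.50 and 1.43. Osr1 (-3.28) and Prrx1 (-1.57), factors of fibroblast lineages, were lower.

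The remaining lists gave smaller counts. Of 28 immediate-early and stress genes 6 were higher (Hspb1 by 2.01, Ier3 by 2.06) and 6 lower, of 10 hypoxia genes 2 were higher (Ndrg1 by 2.96) and 3 lower, of 16 neurotrophic and guidance ligands 3 were higher (Sema3d, Efnb1 and Efnb2) and 4 lower, and of 16 contractile and cytoskeletal genes 3 were higher (Tagln, Nes and Myl9) and none lower. Nes was not called without the Mbp-rich cells. Of 7 cell cycle genes 1 was higher (Stmn1), and its call was lost without the Mbp-rich cells. The proliferation marker Mki67 stood at 5.91, 0, 1.74 and 87.4 CPM, the last in day 5 cells that numbered 22 and held 125863 UMIs in all. By the rule of largest log2 fold change, the genes highest against fibroblasts were Moxd1, Ugt8a, Itga6, Perp, Itgb4, Bcam, Krt19, Mlip, Ntng1, Gldn, Ncmap, Efnb3, Wnt6 and Stra6. Of these, Ugt8a, Mlip, Gldn and Ncmap were too sparse to be tested without the Mbp-rich cells. Ntng1, a netrin relative, and Stra6, the retinol carrier receptor, were higher by 6.36 and 5.96. The genes lowest were Cxcl13 (-5.94), Sfrp2, Hp (-5.66), Arsi, C7 (-5.18), Pla1a, Ccl19, Smpd3, Pcolce2 and Mmp3.

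Markers of other cell types were read beside these results. Of 8 Schwann cell markers tested all were higher against fibroblasts, and of the 4 that could be tested without the Mbp-rich cells none was called in either direction. Summed over the 10 genes of that list, CPM ranged from 873 to 5927 in the 4 libraries with the Mbp-rich cells and from 216 to 446 without them. Endothelial markers gave 1 higher (Emcn) and 1 lower of 5, with a summed level of 167 to 342 CPM against 6782 to 11159 CPM in endothelial cells, with 2 to 6 of the 10 markers at 0 and Cldn5 at 0 CPM in 3 of 4 libraries. Mural markers gave 3 higher (Tagln, Mcam and Vtn) and 1 lower of 8, at 477 to 797 CPM, with 1 to 5 of 10 at 0. Immune markers gave 1 higher of 1 (Cd14), at 35.4 to 36.8 CPM at month 2 and 4139 CPM at day 5, where 1 cell held all 258 UMIs of the neutrophil alarmin S100a9. The mesothelial list gave 1 higher of 1 (Msln, which is also a perineurial marker here), at 43.4 to 127 CPM, and no muscle or fat marker was testable. The part of these markers in the results was not tested.

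Against all remaining cells of the same libraries, 469 of 13732 genes were higher (3.42%) and 599 lower (4.36%). Of 10 perineurial markers outside the gate 9 were higher, with Krt19 at 4.41 (SE 0.31, adjusted p 4.99e-06) and Itgb4 at 2.80 (SE 0.38, adjusted p 3.27e-04). Itgb4 was also found in Sox10+ cells. With every cell thinned to 1000 UMIs it was in 33.8%, 41.8%, 47.6% and 18.2% of perineurial barrier cells and in 8.59% to 13.6% of Sox10+ cells outside the gate (unthinned, 54.9%, 66.6%, 67.7% and 31.8% against 17.2%, 25.6%, 34.5% and 65.3%, at median depths of 2204 to 4064.5 and 2314 to 13347 UMIs). Ptch1 (2.71), Gli1 (2.26), Gli2 (1.88) and Boc (1.16) were higher, and no hedgehog gene of 11 was lower. Klf5 (3.80), Nr2f2 (1.73), F11r (2.21), Tjp1 (1.45) and Slc16a1 (2.60) were higher here too. Without the day 5 library the counts were 924 and 1296, and with the PSNL library of batch 2 at month 2 left out they were 253 and 335.

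The endothelium is the other cellular layer of the barrier, and the number of calls against it depended on the processing. Endothelial cells, taken as cells with a Cdh5 UMI, at least 2 UMIs of Cdh5 and Pecam1 together and none of Sox10, Myh11, Pdgfra or Ptprc, numbered 764, of which 181 passed the 4-gene threshold and 433 had no UMI of the 4 genes. Against all of these, 50 of 7349 genes were higher (0.68%) and 247 lower (3.36%). Against the endothelial cells with no UMI of the 4 genes, an alternative chosen after seeing the data, 541 of 4040 were higher (13.4%) and 537 lower (13.3%). Against all endothelial cells the counts were also 563 and 735 with no filter on low counts and 160 and 322 by DESeq2. With the Leiden cluster in place of the gate they were 661 and 708, and the endothelial class was smaller too. It then held 50, 43, 71 and 409 cells in the 4 libraries, against 67, 132, 144 and 414. With only the threshold cells left out of the endothelial class the counts were 552 and 560. The values that follow come from the fit against endothelial cells with no UMI of the 4 genes.

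All 8 endothelial markers tested were lower in perineurial barrier cells and all 5 perineurial markers were higher. Both classes had been chosen by Cdh5 and the 4 defining genes, so markers that accompany these genes were bound to separate to some degree. Claudin 5 (Cldn5), the main claudin of vessels, stood at 319, 522, 613 and 216 CPM in endothelium and at 0, 0, 1.74 and 0 CPM in perineurial barrier cells, where 1 UMI was found in all. Krt19 stood at 0, 14.7, 0 and 0 CPM in endothelium. Of 9 tight junction genes 2 (Cldn19 and Cgnl1) were higher and 5 lower in perineurial barrier cells. Cldn19 stood at 1999, 2369, 1253 and 514 CPM in the Mbp-rich cells and at 6.52, 5.37, 2.16 and 0 CPM in the others, and all 5 Schwann cell markers tested were higher in this fit (median log2 fold change 7.25). Of 13 solute, drug and water transporters 4 were higher and 5 lower. F11r stood at 479, 404, 176 and 238 CPM in endothelium and was lower in perineurial barrier cells, at -1.02 (adjusted p 0.0293). Tjp1 stood at 290.4, 294, 498 and 268 CPM and gave -0.24 (SE 0.28, adjusted p 0.579), and Cav1 gave -0.86 (SE 0.27, adjusted p 0.0503). Abcb1a (-1.67) and Abcg2 (-2.93) were lower, and Slc16a1 (2.58), Itgb4 (2.22), Ptch1 and Klf5 (6.46) were higher. Of 19 matrix genes 12 were higher and 1 lower, and of 12 interferon and antigen presentation genes none was higher and 10 were lower. These endothelial sums came from 48, 38, 66 and 275 cells.

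Cells that passed the 4-gene threshold often carried Cdh5, for which the rule left them out. In all, 972 cells passed the threshold, and 426 of them were not counted as perineurial barrier cells, with a UMI of Cdh5 in 348, of Sox10 in 80 and of Myh11 in 4. Among threshold cells without Sox10 or Myh11 and with fewer than 3 Mbp UMIs, Cdh5 was found in 30.2% of 96 cells in the PSNL library of batch 1 (95% exact interval 21.3 to 40.4). It was found in 35.9% of 440 sham cells (31.4 to 40.6) and 49.3% of 274 PSNL cells (43.2 to 55.4) of batch 2, and in 52.8% of 36 cells at day 5 (35.5 to 69.6). In Pdgfra cells outside the gate the share was 0.216%, 0.673%, 1.40% and 4.55%, and in Sox10+ cells outside the gate it was 0%, 0%, 0.112% and 0.964%. Median depths were 2198.5 to 7775 UMIs in the threshold cells, 3139 to 11839.5 in the Pdgfra cells and 2314 to 13347 in the Sox10+ cells, and the Pdgfra cells were deeper than the threshold cells in every library.

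The threshold cells with Cdh5 held little of the other endothelial genes. Kdr, a VEGF receptor, stood at 0, 0, 1.94 and 5.01 CPM in them, against 552, 500, 684 and 433 CPM in endothelium. Egfl7 stood at 0, 4.74, 5.81 and 40.1 CPM, against 1634, 1375, 1505 and 1214 CPM. Krt19 stood at 359, 602, 370.2 and 160.4 CPM in the cells with Cdh5 and at 450, 565, 361 and 60.9 CPM in those without. Itgb4 stood at 772, 902, 870.3 and 256 CPM with Cdh5 and at 463, 642, 688 and 81.1 CPM without. Itgb4 was thus the higher in cells with Cdh5 in all 4 libraries, and Krt19 in 3 of them. The cells with Cdh5 were also the deeper, with medians of 2269 to 9578 UMIs against 2175 to 3589.

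**Figure D3:**
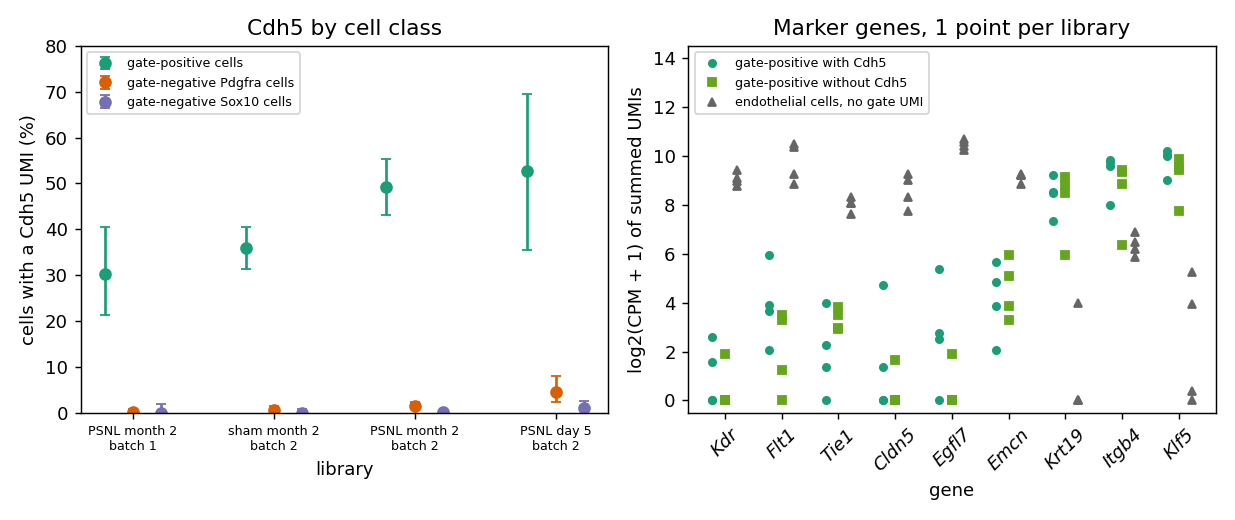
Left, share of cells with a Cdh5 UMI, with 95% exact intervals, in cells that pass the 4-gene threshold and in Pdgfra and Sox10 cells outside it. Right, log2(CPM + 1) of 9 genes in threshold cells with and without Cdh5 and in endothelial cells, 1 point per library, where Kdr, Flt1, Tie1, Cldn5, Egfl7 and Emcn are highest in endothelium and Krt19 and Klf5 in the threshold cells.

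With Cdh5 admitted and the Mbp-rich cells left out, the fit against fibroblasts called 996 of 11906 genes higher and 1282 lower. In it, 9 of 10 perineurial markers, 5 of 11 tight junction genes and 8 of 16 other junction genes were higher, while no perineurial marker, 3 tight junction genes (Cldn10, Jam2 and Magi3) and 1 other junction gene (Cdh2) were lower. Of 27 matrix genes none was higher and 23 were lower, and of 10 hedgehog genes 5 were higher and 2 (Gas1 and Cdon) lower.

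Perineurial barrier cells made up 0.368% of the sham library of batch 1 (2 of 544 cells, 95% exact interval 0.0446 to 1.32), 3.05% of the PSNL library of batch 1 (2.39 to 3.83), 8.46% of the sham (7.54 to 9.44) and 4.34% of the PSNL library of batch 2 at month 2 (3.71 to 5.04), and 1.48% of the PSNL library at day 5 (0.933 to 2.24). Intervals cover counting error only. The mean at month 2 was 4.41% after sham surgery and 3.70% after PSNL, a difference of -0.715 percentage points (two-sided exact permutation test, n = 2 libraries against 2, p = 1, where the smallest p possible is 0.333). Within batch 1 the share was higher after PSNL by 2.68 points, and within batch 2 it was lower by 4.11 points, so the batches went in opposite directions and their difference was not tested. With cells of at least 500 UMIs the batch 2 shares were 6.91% and 4.36%, a difference of -2.55 points, and the difference of the means was -0.128 points. The value rested on single libraries: the difference was 3.33 points without the sham library of batch 2, -4.76 without that of batch 1, -0.0698 without the PSNL library of batch 1 and -1.36 without that of batch 2. Without the Mbp-rich cells the share in batch 2 was 8.31% and 3.68%. With Cdh5 admitted and the Mbp-rich cells left out it was 13.0% and 7.25%.

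**Figure D4:**
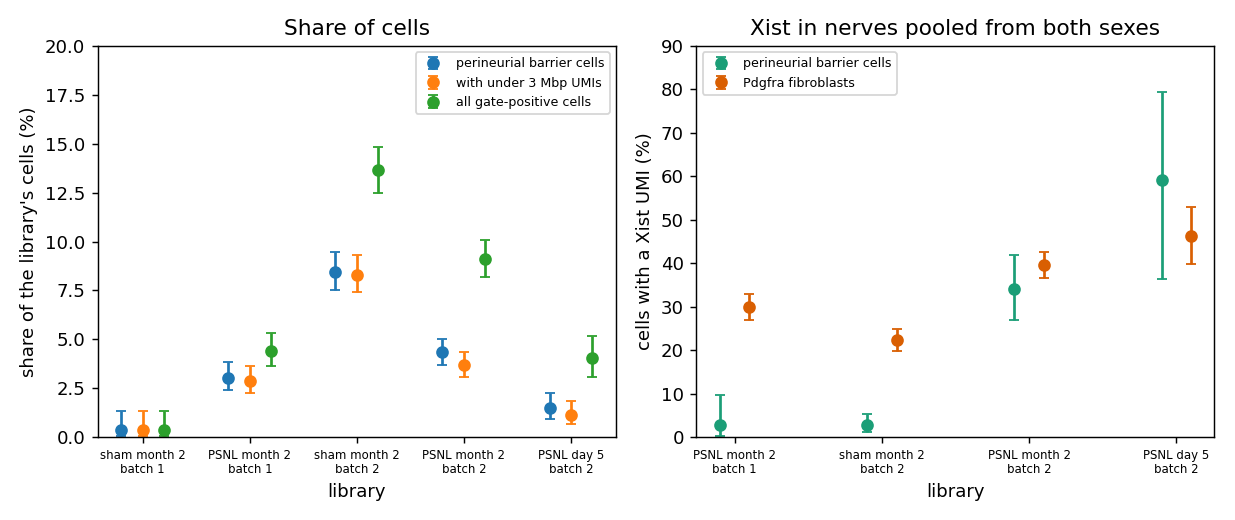
Left, share of each library's cells that were perineurial barrier cells, that were so with fewer than 3 Mbp UMIs, and that passed the 4-gene threshold. Right, share of perineurial barrier cells and Pdgfra fibroblasts with a Xist UMI, without the sham library of batch 1, which had 2 perineurial barrier cells. Bars are 95% exact intervals, and the sham library of batch 2 stands highest on the left and, with the PSNL library of batch 1, lowest of the 4 shown for perineurial cells on the right.

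Sex-linked transcripts differed between the libraries. Each library pooled nerves of both sexes, but Xist, which is transcribed from the inactive X of female cells, was found in 2.82% of perineurial barrier cells in the PSNL library of batch 1, 2.79% of sham and 34.1% of PSNL cells of batch 2, and 59.1% at day 5. In Pdgfra fibroblasts of the same libraries the shares were 29.8%, 22.3%, 39.6% and 46.3%. The summed Y-linked genes Ddx3y, Eif2s3y, Kdm5d and Uty stood at 242, 188, 85.1 and 47.7 CPM in perineurial barrier cells and at 80.2, 125, 92.3 and 75.3 CPM in fibroblasts. The perineurial cells of both the sham library of batch 2 and the PSNL library of batch 1 thus held little Xist. The part of sex in the shares and in the comparison of conditions was not tested.

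In batch 2 at month 2, perineurial barrier cells after PSNL were compared with those after sham surgery, 164 cells of 1 library against 287 of 1 library. There is no replicate in this comparison and no test, so the ratios describe the 2 libraries, and their intervals cover counting error only. A gene is called here when its CPM differed at least 2-fold, with at least 20 UMIs over both libraries and an interval that left out 0. Of 7952 genes, 524 were called higher after PSNL (6.59%) and 257 lower (3.23%). Without the Mbp-rich cells 373 and 232 were called, of which 274 and 160 were in the first sets. With the cells that had a Xist UMI also left out 261 and 193 were called, 146 and 108 of them in the first sets, and with Cdh5 admitted and the Mbp-rich cells left out 418 and 171, of which 165 and 71 were. The calls thus depended on which cells were taken.

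The perineurial markers were not called. Krt19 stood at 554 CPM after sham surgery and 292 CPM after PSNL, a log2 ratio of -0.92 (95% counting interval -1.19 to -0.66), and at 407 CPM in the PSNL library of batch 1 and 47.7 CPM at day 5. Itgb4 stood at 631 CPM after sham surgery and 598 CPM after PSNL, a log2 ratio of -0.08 (95% counting interval -0.28 to 0.12). None of the 11 markers was called, and the defining genes stood at 877 and 789 CPM (Cldn1), 679.9 and 372 CPM (Slc2a1), 2053 and 1157 CPM (Sfrp5) and 706 and 426 CPM (Lypd2) in sham and PSNL. Ptch1 had a log2 ratio of 0.29 (95% counting interval 0.08 to 0.50) and Klf5 of -0.36 (95% counting interval -0.57 to -0.16). Of the barrier genes, F11r stood at 293 CPM after sham surgery and 95.5 CPM after PSNL, a log2 ratio of -1.62 (95% counting interval -2.07 to -1.19). F11r was also lower in fibroblasts, at -2.16, and it stood at 218 CPM in the PSNL library of batch 1 and 55.6 CPM at day 5, so the PSNL library of batch 1 lay nearer the sham value. Cldn19 was called higher (2.20) only with the Mbp-rich cells. Of 10 Wnt genes 2 were called lower, and 5 without the Mbp-rich cells. Wnt10a stood at 119.7 CPM after sham surgery and 33.0 CPM after PSNL, a log2 ratio of -1.86 (95% counting interval -2.65 to -1.13), and was not called with Cdh5 admitted (-0.63). The Wnt agonist Rspo1 was called lower at -2.06, from 22 and 4 UMIs, and Wnt6 had -0.90 (95% counting interval -1.14 to -0.66).

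Of 28 immediate-early and stress genes compared in this batch none was called higher and 8 lower, with a median log2 ratio of -0.62 against 0.03 over all genes. Atf3, a stress-induced transcription factor, stood at 334 CPM after sham surgery and 45.2 CPM after PSNL, a log2 ratio of -2.89 (95% counting interval -3.53 to -2.30). The small heat shock protein Hspb1 stood at 1445 CPM after sham surgery and 441 CPM after PSNL, a log2 ratio of -1.71 (95% counting interval -1.91 to -1.51). Fos stood at 4722 CPM after sham surgery and 2284 CPM after PSNL, a log2 ratio of -1.05 (95% counting interval -1.14 to -0.96). The other called genes were Ier2 (-1.49), Mt2 (-1.23), Nr4a1 (-1.19), Btg2 (-1.18) and Socs3 (-1.07). In fibroblasts of the same libraries the ratios of these 8 genes lay between -0.74 and -0.07. In the PSNL library of batch 1 Atf3 stood at 17.7 CPM and Fos at 2043 CPM, near the PSNL library of batch 2, while Hspb1 stood at 1016 CPM, nearer the sham library. With Cdh5 admitted and the Mbp-rich cells left out 8 were called lower, and without the Mbp-rich cells and those with a Xist UMI (274 and 92 cells) 12 were. Socs3 was not called without the Mbp-rich cells (-0.87).

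Of 24 genes of the fibrillar matrix 4 were called higher and 1 lower, with a median log2 ratio of 0.57. Lumican (Lum) stood at 445 CPM after sham surgery and 1327 CPM after PSNL, a log2 ratio of 1.58 (95% counting interval 1.39 to 1.77), against 0.03 in fibroblasts, and at 579 CPM in the PSNL library of batch 1 and 1851 CPM at day 5. Col14a1 stood at 18.4 CPM after sham surgery and 78.2 CPM after PSNL, a log2 ratio of 2.09 (95% counting interval 1.19 to 3.07), and 1.09 in fibroblasts. Fbln2 (1.36) and Col5a1 (1.01) were called higher and Fmod (-1.08) lower. Of 22 basement membrane genes 4 were called higher, namely perlecan (Hspg2, 1.76), Lamb1 (1.42), Lama2 (1.39) and Col15a1 (1.14), and 1 lower, Col4a4 (-1.38). Without the Mbp-rich cells 7 matrix genes were called higher and none lower. Without the Mbp-rich cells and those with a Xist UMI, Lama2 (1.27) alone of these 4 was still called. Hspg2 stood at 94.5 CPM in the PSNL library of batch 1 and 644 CPM at day 5. Fibroblast markers were also called higher in the same comparison, 2 of 7 epineurial ones (median log2 ratio 0.40) and 2 of 6 endoneurial ones (median 0.73), and none of either was called lower. A Pdgfra UMI was found in 6.62% of sham and 15.2% of PSNL perineurial barrier cells, and in 3.14% and 7.93% once each cell was thinned to 1000 UMIs. In Sox10+ cells outside the gate the unthinned shares were 1.24% and 2.69%. The part of fibroblast RNA in the matrix genes was not tested.

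**Figure D5:**
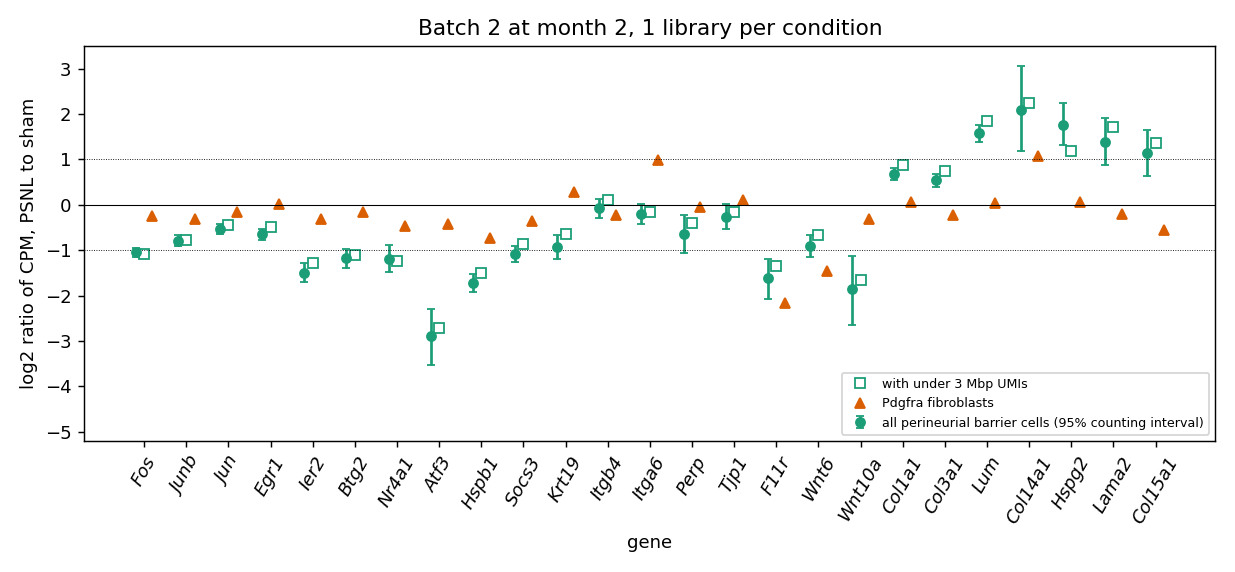
Log2 ratio of CPM, PSNL to sham at month 2 in batch 2, for 25 genes, in all perineurial barrier cells with 95% counting intervals, in those with fewer than 3 Mbp UMIs, and in Pdgfra fibroblasts. Each condition is 1 library, dotted lines mark 2-fold, and Atf3, Hspb1 and Ier2 lie below the lower line in perineurial cells and above it in fibroblasts.

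Most of the genes with the largest ratios had few UMIs in 1 of the libraries. Highest were Dhh, Ppm1l, Mt3, Gnai1, Ptpre, Igfbp3, Cadm4, Cxcl14 and Sorcs1, and all but Igfbp3 and Cxcl14 had under 20 UMIs once the Mbp-rich cells were left out. Igfbp3 had 3 and 44 UMIs, a log2 ratio of 4.28 (95% counting interval 2.63 to 6.61), and Cxcl14, a chemokine, 6 and 58 UMIs, a ratio of 3.67 (95% counting interval 2.47 to 5.18). Lowest were Rtn4r, the Nogo receptor, with 24 and 1 UMIs and a log2 ratio of -4.18 (95% counting interval -9.55 to -1.57), Zdhhc7, Fam160b2, Fabp4 with 32 and 2 UMIs and -3.60 (95% counting interval -6.70 to -1.63), Spink1, Uck1, Dolpp1, Acta2 (-3.03), Atf3 and Slc25a38. Of the 8 Schwann cell markers compared all were called higher, and 1 of 2 was without the Mbp-rich cells. Of 14 contractile genes 6 were called lower, among them Acta2, Tagln (-1.55) and Myl9 (-1.25), and none was with Cdh5 admitted and the Mbp-rich cells left out. Of 5 mural markers compared 2 were called lower, Acta2 and Tagln, which the contractile list also holds, with a median log2 ratio of -0.69 (-1.40 without the Mbp-rich cells, and 0.05 with none called when Cdh5 was admitted as well). The part of mural RNA in the contractile genes was not tested. The remaining lists had at most 3 genes called in either direction.

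The day 5 library stood apart from the others in the perineurial barrier cells, also in genes outside the gate. In it, 12 of 22 cells had at least 5 UMIs of the 4 defining genes. At month 2 these were 51 of 71 (PSNL, batch 1), 237 of 287 (sham, batch 2) and 102 of 164 (PSNL, batch 2). Over all libraries Krt19, Itgb4, Klf5 and Wnt6 rose with these UMIs, and the part of the gate at day 5 was not tested. The 22 cells of day 5 had the lowest CPM of Krt19, Itgb4, Perp, Klf5, Wnt6, F11r, Tjp1 and Ptch1, and the highest of Col1a1, Col3a1, Lum, Nid1 and Hspg2. In part the fibroblasts of that library did the same, with the highest Col1a1, Col3a1 and Hspg2 and the lowest Tjp1 and Perp of the 4 libraries, while their Ptch1 was the highest and their Lum and Nid1 were the lowest. Dleu7, Ocln and Wnt10a had no UMI there. A Pdgfra UMI was found in 31.8% of its perineurial barrier cells (13.6% after thinning), against 6.62% to 15.2% (1.41% to 7.93%) at month 2. The 7 epineurial markers summed to 1430 CPM in them, against 256 to 809 CPM at month 2. The 7 endoneurial markers summed to 914 CPM, against 355 to 716 CPM. Of the 22 day 5 cells 5 were Mbp-rich and 1 held all the S100a9. The library had no sham control at day 5 here, so time after surgery, library and mix of cells cannot be told apart.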

How the data were processed

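Sciatic nerve cells of 5 libraries (10X Genomics 3' v3) were analysed as deposited by the authors, who gave raw UMI counts per gene and barcode, unfiltered. The submitters' processing notes name kallisto 0.46.2, bustools 0.40.0, Seurat 4.3 and GRCm38. Of 55421 gene IDs in the deposited counts, 55154 had a symbol. Total counts per library were 4099617 to 19557393 UMIs. No column was left unmapped. The perineurial barrier cells and the gene lists were chosen with earlier results of these data known.

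UMIs were summed per library and class and tested with edgeR 4.0.16 in R 4.3.3 (quasi-likelihood test, TMM, filterByExpr, the library as a block, Benjamini-Hochberg adjustment over all genes tested, threshold 0.05) over the 4 libraries with at least 5 cells of both classes. Genes of either gate were left out of the test. The test was tested on simulated data with 200 genes changed 4-fold. Against fibroblasts it recovered 195 of them with 25 false calls among 11190 genes. Against remaining cells it recovered 153 with 35 among 13079, and against endothelial cells 166 with 7 among 6942. In the simulations against fibroblasts and remaining cells, the false share of all calls was thus above the threshold of 0.05. The endothelial simulation used all endothelial cells, not those with no UMI of the 4 genes. CPM are the summed UMIs of a gene scaled to the total of the sum. PSNL and sham in batch 2 were compared by the ratio of CPM with an exact (Clopper-Pearson) counting interval, which covers counting error only. Shares carry exact binomial intervals. Clusters came from scanpy 1.11.5 in Python 3.11.15 (2000 variable genes, 20 components, 20 neighbours, resolution 0.5).

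Named genes were those of 27 gene lists, the 15 called genes highest and 10 lowest against fibroblasts with 1 direction in every library and a mean of at least 50 CPM, and the 10 with the largest batch 2 ratios each way, without mitochondrial, ribosomal protein and unnamed genes. Certain genes are not reported here and were left out of these names and lists. Doublets stayed in: Scrublet called 43 of 11524 cells, too few to count as working, and 2 of them were perineurial barrier cells. Alternatives were other thresholds of the gate and of UMIs per cell, thinning to 1000 UMIs, further negative genes, the Leiden cluster in place of the gate, DESeq2 1.42.0, no filter on low counts, no block, subtraction of 10% of the profile of barcodes with 10 to 100 UMIs, and leaving out each library. Those on Mbp, Cdh5, Xist and endothelial cells that pass the 4-gene threshold were chosen after seeing the data.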

Additional observations from a re-analysis of the deposited data

Results flagged for a closer look

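The share of perineurial barrier cells moved in opposite directions in the 2 batches at month 2. It was higher by 2.68 percentage points after PSNL in batch 1 (0.368% to 3.05%) and stood at -4.11 points after PSNL in batch 2 (8.46% to 4.34%). Each direction comes from 1 library against 1, and the difference between the batches was not tested. The sham library of batch 1 had 544 cells, the fewest of the 5.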

How the results depend on the processing

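Most single genes followed here were called genes with the largest fold changes and 1 direction in every library, a choice that favours calls that hold. Settings that gave no value for a gene were not counted, which left 11 alternatives for Mlip and 14 for Ugt8a, against 20 for Itga6. Of the alternatives for these genes against fibroblasts, 670 kept direction and side of the threshold, 11 lost the call, 2 gained one and 3 turned. The 3 were Mbp at -1.04 for the Leiden cluster, and at -1.86 both without the Mbp-rich cells and with Cdh5 admitted as well, 2 settings built on Mbp itself. Pdgfrb, which was called lower in perineurial barrier cells, lost its call in 9 of 20 alternatives. Its log2 fold change lay between -1.04 and -0.61 over these 20. C7 and Col1a1 lost their calls without the library block. Dcn gained a call with no filter on low counts (-0.61) and without the day 5 library (-0.75). The causes were not tested. Having no filter moved the median of all genes to -0.52 against fibroblasts, -0.54 against remaining cells and -0.24 against endothelial cells.

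Of the counts and shares, 108 alternatives stayed within bounds, 61 moved and 1 turned. These bounds left a change from 599 to 869 genes as within them and counted one from 802 to 1206 as moved. The difference in share changed sign without the sham library of batch 2. Against fibroblasts the genes higher ranged from 408 to 1206 when 1 library was left out. Those lower ranged from 422 to 1523, and were 1489 for the Leiden cluster and 1517 with no filter. Against remaining cells the genes higher ranged from 253 to 924 over left-out libraries, and were 998 for the Leiden cluster, 763 with Cdh5 admitted, 852 with it admitted and Mbp-rich cells out, and 264 without the library block. Those lower ranged from 335 to 1296, and were 1148 after thinning, 1189 with the further negative genes, 1601 for the cluster, 1055 without Mbp-rich cells, 976 with Cdh5 admitted, 1246 with both changes, 1086 with no filter and 283 without the block.

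Against endothelial cells the genes higher ranged from 12 to 178 over left-out libraries. They were 100 at a threshold of 2 UMIs, 18 at 5 UMIs, 29 with the further negative genes and 22 without Mbp-rich cells. By DESeq2 they were 160, with no filter 563 and after ambient subtraction 27. Against endothelial cells below the 4-gene threshold they were 552, and against those with none of its UMIs 541. For the cluster they were 661, with Cdh5 admitted 746 and with both changes 709, settings that also made the endothelial class smaller. Those lower ranged from 84 to 408, and were 560 and 537 against the restricted endothelial cells and 735 with no filter. For the cluster they were 708, with Cdh5 admitted 725 and with both changes 689, again with the smaller endothelial class. These settings changed the endothelial class along with the perineurial cells, so their counts do not show the effect of either choice alone.

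In batch 2 the genes higher after PSNL were 324 at a threshold of 5 UMIs, 305 after thinning, 326 with the further negative genes, 261 without Mbp-rich and Xist+ cells, 844 at 1.5-fold and 203 at a minimum of 50 UMIs. Those lower were 160 for the cluster, 171 with Cdh5 admitted and Mbp-rich cells out, 596 at 1.5-fold and 134 at 50 UMIs. The difference in share ranged from -4.76 to 3.33 points over left-out libraries, and with the batch as a replicate block it was -0.715 points (exact paired permutation test, p = 1, smallest possible 0.5). Day 5 rests on 22 cells and 125863 UMIs, which limits the genes that can be seen there.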

Other observations

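Against endothelial cells with no UMI of the 4 defining genes, perineurial barrier cells differed in further groups by edgeR's quasi-likelihood test. Of 25 immediate-early and stress genes 10 were higher, Fos and Mt1 among them, and 1, Klf2, a flow-responsive factor of endothelium, was lower. Of 11 neurotrophic and guidance ligands 6 were higher (Sema3d, Sema3c, Mdk, Ntn4, Ntn1 and Vegfa) and 2 lower, and of 12 cytokine and complement genes 6 were higher, among them Il33, and 3 lower, among them Cxcl12. Of all 4040 genes tested 13.4% were higher and 13.3% lower.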
